A study of Mus musculus with 69 samples.

Results

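Livers of old mice kept on the control diet were compared between the sexes, using the 16 control females and the 19 control males of a series of 69 liver arrays, with 1 array per mouse. The members were taken from the labels alone, as every array labelled control, with animal codes that start with F or M. Both groups were C57BL6/J mice killed at 25 months of age that had eaten chow with the Eudragit coating polymer and no drug from 4 months of age, for 21 months, so sex was the labelled difference. The other arrays came from Rapa-fed mice of the same strain and age, given encapsulated rapamycin at 14 ppm over the same months. They comprised 21 females, 7 Rapa-1 males and 6 Rapa-2 males, and the study drew the division into Rapa-1 and Rapa-2 from the array values themselves. The question was which transcripts differ between the livers of old males and females without any drug. A bulk liver holds several cell types, and fewer cells of a type cannot be told apart from less RNA per cell.

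Mouse liver is among the most sexually dimorphic tissues outside the gonads. Growth hormone is released from the pituitary in separated pulses in males and almost continuously in females, and each pulse activates the transcription factor STAT5 in hepatocytes. BCL6, which is higher in male liver, and CUX2, which is nearly specific to female liver, are repressors that act on genes of the other sex, and sex steroids act on the liver mainly by setting the pituitary pattern. The known targets include steroid-hydroxylating cytochrome P450 enzymes, major urinary proteins, sulfotransferases and plasma protease inhibitors.

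Short stretches of reference promoter are shown for 5 genes from both ends of the comparison because they hold letters known from these regulators. RefSeq promoters of build GRCm38.p6 matched 15 of 18 genes higher in females and 12 of 18 lower in females that were named for the size of their difference or as sex-biased genes, and each stretch is the 250 bases before the start. Capitals mark TTCNNNGAA, the core letters of a STAT5 site, in A1bg, Hamp2 and Slc22a26, whose levels were higher in females. In Mup21 and Serpina1e, lower in females, capitals mark ATCGAT or ATCAAT, or their reverse, letters bound by CUX2 and by HNF6. The A1bg and Slc22a26 stretches also hold these CUX2 and HNF6 letters, left in lower case, 150 and 58 bases before the start. The stretches lie at chr15:60921271-60921520 (A1bg), chr7:30924182-30924431 (Hamp2), chr19:7802668-7802917 (Slc22a26), chr4:62150842-62151091 (Mup21) and chr12:103956898-103957147 (Serpina1e), each on the minus strand.
A1bg: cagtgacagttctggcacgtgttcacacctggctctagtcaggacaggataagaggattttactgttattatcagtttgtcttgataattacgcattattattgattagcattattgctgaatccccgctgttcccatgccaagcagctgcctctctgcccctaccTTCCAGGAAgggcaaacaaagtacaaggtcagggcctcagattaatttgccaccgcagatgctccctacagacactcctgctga
Hamp2: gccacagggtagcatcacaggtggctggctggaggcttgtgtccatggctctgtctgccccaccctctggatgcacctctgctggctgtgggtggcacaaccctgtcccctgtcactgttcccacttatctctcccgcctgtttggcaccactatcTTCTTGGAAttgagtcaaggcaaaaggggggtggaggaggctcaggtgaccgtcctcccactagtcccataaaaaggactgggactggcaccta
Slc22a26: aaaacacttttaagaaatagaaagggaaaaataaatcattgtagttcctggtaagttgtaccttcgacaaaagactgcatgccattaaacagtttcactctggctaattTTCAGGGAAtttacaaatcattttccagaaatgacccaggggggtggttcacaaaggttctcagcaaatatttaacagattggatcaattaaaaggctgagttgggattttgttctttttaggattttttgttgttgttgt
Mup21: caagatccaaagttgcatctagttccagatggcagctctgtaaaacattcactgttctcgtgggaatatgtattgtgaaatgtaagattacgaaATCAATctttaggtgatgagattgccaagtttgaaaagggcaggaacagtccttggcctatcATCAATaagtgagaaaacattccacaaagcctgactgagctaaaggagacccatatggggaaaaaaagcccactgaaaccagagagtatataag
Serpina1e: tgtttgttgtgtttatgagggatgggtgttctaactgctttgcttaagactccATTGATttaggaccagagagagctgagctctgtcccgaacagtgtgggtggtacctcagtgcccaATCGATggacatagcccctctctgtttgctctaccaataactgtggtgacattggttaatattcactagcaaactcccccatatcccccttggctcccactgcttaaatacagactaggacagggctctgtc
The STAT5 letters began 84 bases before the start in A1bg, 94 in Hamp2 and 141 in Slc22a26. Over both strands they were found before at least 1 start of 4 of 15 genes higher in females and 2 of 12 lower in females, and in 7.02% of 32851 promoter stretches of this length. The CUX2 and HNF6 letters were found for 4 of 15 and 5 of 12, and in 7.4% of all stretches. AGAACA, letters of androgen and glucocorticoid receptor sites, and AGGTCA, of oestrogen receptor sites, were held by 3 of 15 and 3 of 12, and by 3 of 15 and 2 of 12, against 16.1% and 14.0% of all stretches. A gene counted if any of its starts held the letters, whereas the shares of all stretches count single stretches. The gene counts and those shares are therefore not like for like. A match of letters is a description and not a bound site.

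Sex chromosome genes were read first, as a check of the labels. Xist, the noncoding RNA of the inactive X chromosome, lay between 7.54 and 8.22 on the log2 signal scale in control females and between 6.52 and 6.88 in control males, where it was detected on no array, so it was at least 2.08-fold higher in females. The Y-linked Eif2s3y, a translation initiation factor subunit, lay between 8.46 and 9.21 in control males. No female array detected it, and it was at least 3.92-fold higher in males. Every control array therefore carried the sex chromosome pattern of its label. Kdm6a, a histone demethylase that escapes X inactivation, was higher in females by 0.58 ± 0.06 (SE; adjusted p = 1.78e-09).

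The signals behind these values differed in brightness between the sexes before normalization. The median raw bead signal was 104 ± 7.85 (SD, n = 16) in control females and 129.96 ± 10.6 (n = 19) in control males, and the signal at which the brightest 0.1% of probes begin was 27751 and 39003. Both differences had a permutation p of 2e-05, the smallest that 100000 resamples can give where the smaller tail is doubled for a two-sided test. The share of probes detected was 43.6% and 43.8% (permutation p = 0.744). The labels give no chip or date, so the part of array brightness in the sex differences was not tested apart from sex. In the Rapa-fed mice the raw median was 88.98 ± 4.23 (n = 6) in Rapa-2 males, 124 ± 5.37 (n = 7) in Rapa-1 males and 102 ± 7.26 (n = 21) in Rapa females, and the brightest 0.1% began at 25499, 40843 and 23629. Eif2s3y, which marks males, was at a mean of 8.87 in control males and between 6.85 and 7.31 in Rapa-2 males, above the female range of 6.35 to 6.59. Xist was at a mean of 6.70 in Rapa-2 males and 6.71 in control males. The sources used here do not account for the low Eif2s3y of the arrays labelled Rapa-2, so every result that rests on them carries that doubt.

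Many transcripts differed by a small amount and few by a large one. Of 12442 tested transcripts, 4433 (35.6%) passed, which required more than a 15% change and an adjusted p below 0.05. They were 2426 higher in females (19.5%) and 2007 lower (16.1%), and the median size of a passing difference was 0.36 on the log2 scale. At adjusted p under 0.01 and over 2-fold, 37 transcripts were higher in females (0.297%) and 337 lower (2.71%). On the autosomes these were 32 and 305 of 11379 tested transcripts, on the X chromosome 1 and 14, and on the Y chromosome 0 and 1, while 4 and 17 had no chromosome in the annotation used here. The first principal component of the 35 arrays held 38.9% of the variance, and females lay between 11.6 and 42.5 on it and males between -30.3 and -1.16, without overlap.

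**Figure D1:**
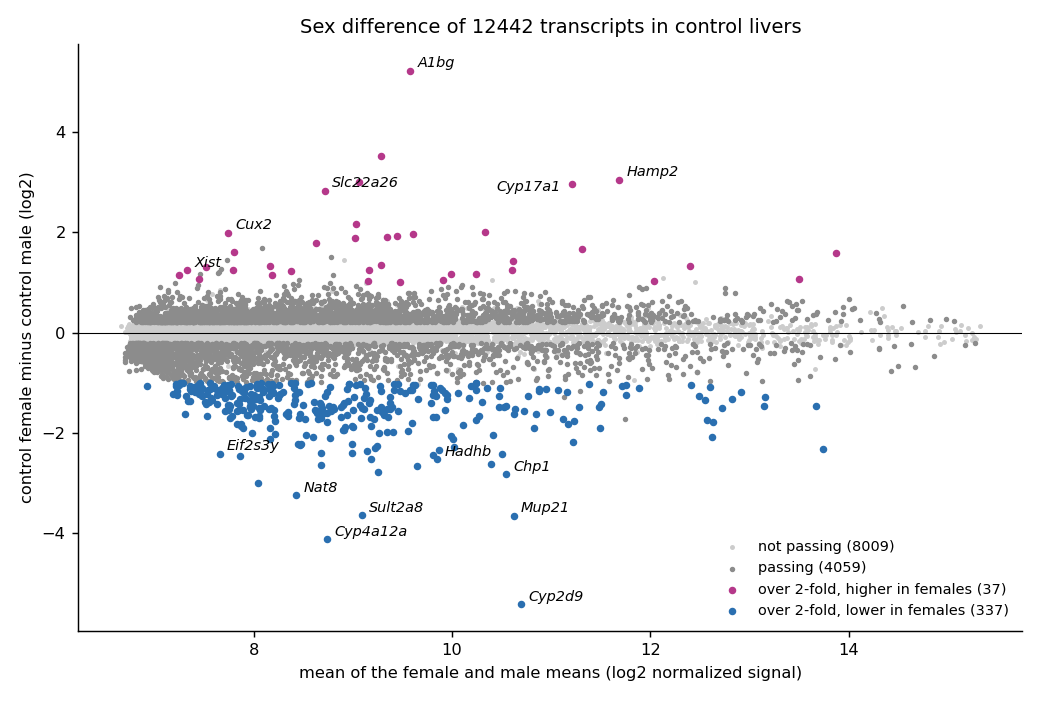
Log2 difference between control females and control males (vertical axis, female minus male) against the mean log2 normalized signal (horizontal axis) for 12442 transcripts. Pink points are the 37 transcripts over 2-fold higher in females and blue points the 337 over 2-fold lower; A1bg and Cyp2d9 stand at the ends, and the blue points crowd between -1 and -3.

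The female end of the comparison was led by A1bg, a plasma glycoprotein of the immunoglobulin superfamily. Its log2 signal was between 7.82 and 14.65 in control females, with a median of 13.08, and between 6.65 and 7.76 in control males, with a median of 6.83. It was 37.1-fold higher in females (log2 difference 5.21 ± 0.49, SE; adjusted p = 2.31e-11), and the groups did not overlap although females were spread over an SD of 2.18. A1bg was detected on 16 of 16 female and 9 of 19 male arrays.

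Hamp2, a paralog of the iron hormone hepcidin, ranged from 10.27 over a median of 13.44 to 15.00 in females and from 8.26 over 10.43 to 12.29 in males, a difference of 3.04 ± 0.44 (adjusted p = 4.68e-07). Cyp17a1, the hydroxylase and lyase of androgen synthesis, was at 10.57, 12.80 and 14.01 (lowest, median, highest) in females and at 7.74, 9.78 and 12.46 in males, higher in females by 2.97 ± 0.37 (adjusted p = 1.57e-08). Slc22a26, of the organic anion transporter family, lay at 9.44, 9.99 and 11.01 in females and at 6.67, 6.98 and 9.09 in males, higher by 2.82 ± 0.21 (adjusted p = 7.02e-14). Slc22a26 separated every mouse by sex, while some males reached female levels of Hamp2 and Cyp17a1.

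Cux2, the repressor described above, was at 7.96, 8.77 and 9.53 in females and at 6.47, 6.60 and 8.40 in males, of which 4 of 19 arrays detected it. The difference was 1.99 ± 0.14 (adjusted p = 2.51e-14), and 1 male at 8.40 overlapped the females. Another tested probe of Cux2 differed by 0.20. Nt5e, the cell-surface enzyme that makes adenosine from AMP, differed by 1.97 ± 0.15 (other probe 0.48), and St3gal6, a sialyltransferase, by 1.89 ± 0.09 with an SD of 0.31 in females and 0.23 in males. Neither gene overlapped between the sexes.

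The 12 highest differences among autosomal genes with a symbol were completed by Dct, Cyp2b10, Acot3 and Cyp2b13, and by S100a8, described with the neutrophil genes. Dct, an enzyme of melanin synthesis, was higher in females by 2.15 ± 0.21. The xenobiotic-inducible Cyp2b10 was higher by 1.92 ± 0.31 on its brighter probe and by 0.07 on its other probe. Acot3, a peroxisomal thioesterase, was higher by 1.90 ± 0.43 (adjusted p = 0.000385). Cyp2b13, a P450 known as female-specific in young mice, was higher by 1.79 ± 0.55 (adjusted p = 0.00645), and its female values reached from 6.35 to 12.91 with 14 of 16 arrays detecting it. Each of these overlapped between the sexes.

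**Figure D2:**
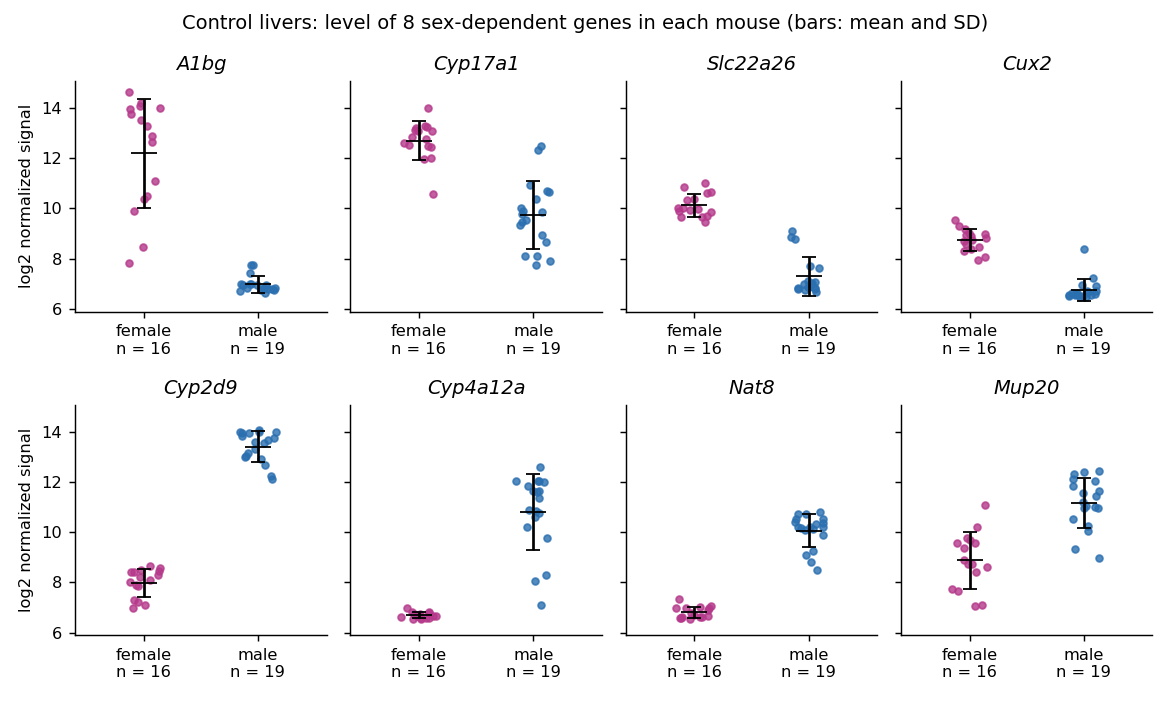
Log2 normalized signal (vertical axis) of 8 genes in each control mouse, females (n = 16) in pink and males (n = 19) in blue, with the mean and SD as black bars. A1bg, Slc22a26, Cyp2d9, Cyp4a12a and Nat8 show no overlap between the sexes, whereas some males reach the females' range for Cyp17a1, 1 male does for Cux2, and the ranges of Mup20 overlap.

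The male end was led by Cyp2d9, a steroid hydroxylase of male liver. Its log2 signal was between 12.11 and 14.04 in males, with a median of 13.58, and between 6.97 and 8.65 in females, with a median of 8.14. It was 42.4-fold lower in females (log2 difference -5.41 ± 0.19; adjusted p = 2.2e-23), and the gap between the sexes was wider than the whole range of either.

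Cyp4a12a, a fatty acid and arachidonate hydroxylase under androgen control, was at 7.12, 11.35 and 12.60 in males and at 6.53, 6.67 and 7.00 in females, where 1 of 16 arrays detected it; the measured difference was -4.11 ± 0.37 (adjusted p = 6.96e-12), against female values near background, so its size is uncertain. Its near-identical neighbour Cyp4a12b was detected on no female array and was at least 4.6-fold lower in females (measured difference -2.47; adjusted p = 2.26e-08), and the array may not separate the pair. Cidea, a lipid droplet protein, was also detected on no female array and was at least 6.26-fold lower (measured means 6.55 and 9.54; adjusted p = 1.31e-07), with male values from 6.61 to 11.43. These 3 genes were low in all females and variable among old males.

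Nat8, an N-acetyltransferase, was at 8.51, 10.20 and 10.82 in males and at 6.54, 6.75 and 7.34 in females, a log2 difference of -3.24 ± 0.17 (adjusted p = 1.21e-18). Sult2a8, a bile acid sulfotransferase of male liver, was at 7.34, 11.19 and 12.12 in males and at 6.38, 7.00 and 8.35 in females, a difference of -3.64 ± 0.30 (adjusted p = 5.74e-13). Nat8 did not overlap between the sexes, and Sult2a8 did.

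Genes listed for a known sex bias in mouse liver were read next, at 25 months. Of 61 genes listed as female-biased, 42 were on the array and 31 were tested: 20 were higher in females, 1 was lower and 10 did not pass, with a median difference of 0.54. Of 67 male-biased genes, 58 were on the array and 49 were tested: 30 were lower in females, 3 were higher and 16 did not pass, with a median of -0.85. Over all 8729 tested genes, 1 probe each, 21.8% were higher and 14.3% lower, with a median of 0.07. The lists were chosen for their known sex bias, and 11 male-biased members were detected on most male arrays and on at most 8 of 16 female arrays, so their place among the tested genes rests on the males. When each array's raw median entered the fit, 9 female-biased members were higher and 22 male-biased members lower.

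Among the other male-biased members, Mup5 was lower in females at a log2 difference of -2.77 ± 0.27, Ugt2b1, a glucuronosyltransferase, at -2.64 ± 0.15, Mup20, the urinary pheromone darcin, at -2.28 ± 0.35 and Serpina12, an adipokine serpin, at -1.77 ± 0.28. Other probes of Mup5 and Serpina12 differed by -0.09 and -0.39. Serpina1e, a protease inhibitor, was at 10.16, 14.16 and 15.18 in males and at 8.52, 10.55 and 14.28 in females, a difference of -2.07 ± 0.61 (adjusted p = 0.00429), and 5 of 16 females were above the male mean. With the brightest 0.1% signal as a covariate the Serpina1e difference was -0.47, and with the raw median it was -1.33. Car3, a carbonic anhydrase, differed by -1.71 ± 0.65 (adjusted p = 0.0243), with females from 6.85 to 13.50 and males from 7.30 to 14.07. Serpina1e and Car3 were the most variable of these genes in both sexes.

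A few passing members went against the sex their list names.
Aatk, a kinase listed as female-biased, was lower in females (log2 difference -1.22 ± 0.18; adjusted p = 4.49e-07). Of the male-biased list, Cish, a feedback inhibitor of STAT5 signalling, was higher in females by 0.92 ± 0.18 (adjusted p = 5.28e-05), Igfals, which holds IGF1 in the circulation, by 0.92 ± 0.11 (adjusted p = 1.83e-08) and the complement gene C4b by 0.46 ± 0.10 (adjusted p = 0.000151). Female-biased members with smaller passing differences were Mmd2 (1.05 ± 0.25), the receptor gene Ntrk2 (0.97 ± 0.19) and Nnmt, the nicotinamide methyltransferase (0.88 ± 0.26).

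**Figure D3:**
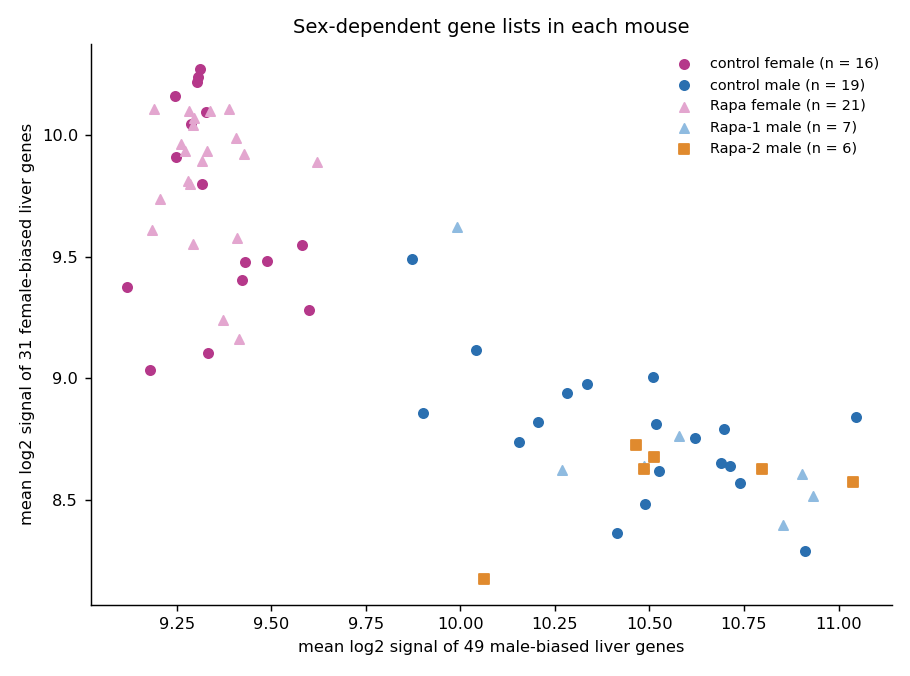
Mean log2 signal of the 31 tested female-biased genes (vertical axis) against that of the 49 tested male-biased genes (horizontal axis), 1 point per mouse, coloured by group. Control females lie between 9.12 and 9.6 and control males between 9.87 and 11.05 on the horizontal axis. Rapa females lie between 9.19 and 9.62 on it and Rapa-1 and Rapa-2 males between 9.99 and 11.04.

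The mean of the male-biased list was 9.34 ± 0.13 (SD, n = 16) in control females and 10.5 ± 0.32 (n = 19) in control males. That of the female-biased list was 9.72 ± 0.43 and 8.78 ± 0.27, with female values down to 9.03 and male values up to 9.49. In Rapa-1 and Rapa-2 males the male-biased means were 10.6 ± 0.35 and 10.6 ± 0.33, and in Rapa females 9.33 ± 0.10. By the male-biased list every control mouse lay on the side of its sex, whereas the female-biased list overlapped.

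The sex difference was then read in Rapa-fed mice, whose arrays entered the shared normalization and detection filter but not the control contrast. Against all Rapa males, 5000 transcripts passed in Rapa females (40.2%). Of the 37 transcripts over 2-fold higher in control females, 28 passed in the same direction against Rapa-1 males and 30 against Rapa-2 males, where 32.7% and 12.1% of all transcripts were higher. Of the 337 over 2-fold lower, 330 passed in the same direction against Rapa-1 males and 173 against Rapa-2 males, where 19.1% and 12.0% of all were lower. Both Rapa comparisons share the same 21 females, and Rapa-1 and Rapa-2 had been told apart on these values, so their counts are descriptions.

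Over 2-fold in both settings, the female-high transcripts numbered 24 against Rapa-1 males (64.9% of the control set, 57.1% of the Rapa-1 set) and 27 against Rapa-2 males (73.0% and 64.3%), where 0.338% of all transcripts were over 2-fold higher in each. The male-high transcripts numbered 310 against Rapa-1 males (92.0% of the control set, 43.7% of the Rapa-1 set) but 53 against Rapa-2 males (15.7% and 72.6%), where 5.71% and 0.587% of all transcripts were over 2-fold lower. Of the 337, 232 differed by less than 0.5 on the log2 scale between Rapa females and Rapa-2 males.

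**Figure D4:**
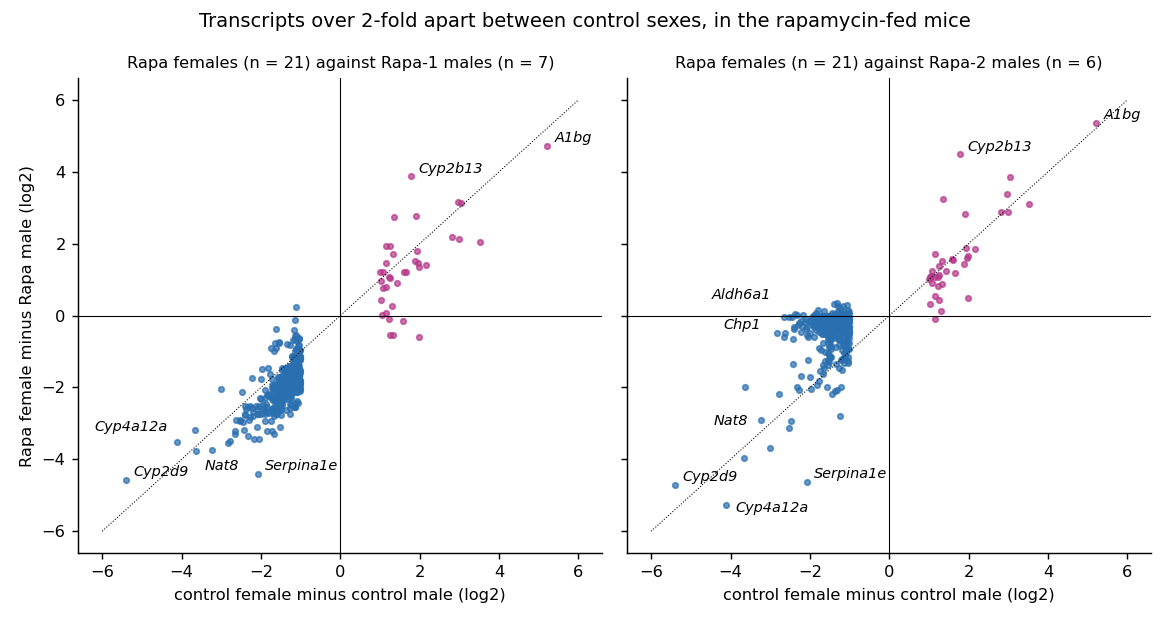
Log2 difference between Rapa females and Rapa-1 males (left) or Rapa-2 males (right) on the vertical axis, against the log2 difference between control females and control males on the horizontal axis, for the transcripts over 2-fold apart in controls (37 pink, higher in control females; 337 blue, lower). The dotted line marks equal differences; against Rapa-2 males 232 of the 337 blue points lie within 0.5 of 0, while Cyp2d9, Cyp4a12a, Nat8 and 27 of the 37 pink points stay over 2-fold from it.

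The 53 and the 232 transcripts differed in more than this. Of the 53, 21 were probes of the male-biased list, 13 (24.5%) did not overlap between control sexes, and the median SD was 0.55 in females and 0.61 in males. Of the 232, 1 was on that list, 202 (87.1%) did not overlap, and the median SD was 0.20 and 0.21. With 1 probe per gene, 20 of the 49 tested male-biased genes were over 2-fold lower in females, beside 220 of all 8729. Both sets were cut by the values of Rapa-2 males and leave out part of the 337, so their counts are descriptions. Over all tested transcripts, 0.458% were higher and 5.06% lower in females without overlap, and among those over 2-fold it was 5 of 37 and 244 of 337. Control females, Rapa females and Rapa-2 males were also the groups with the lowest raw medians, given above, and the part of array brightness in the 232 was not tested.

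Members of the known program are set beside the control comparison here. Cyp2d9 gave log2 differences of -4.57 and -4.70 between Rapa females and Rapa-1 or Rapa-2 males, Mup21 -3.18 and -3.95, Nat8 -3.74 and -2.90, Cyp4a12a -3.53 and -5.28 and Mup20 -2.52 and -2.06. A1bg was higher by 4.73 and 5.36, Cyp17a1 by 3.16 and 3.40, Slc22a26 by 2.19 and 2.89 and Cux2 by 1.34 and 1.66. Other named members gave unlike values against the 2 kinds of Rapa male: Ugt2b1 gave -3.29 and -0.59 and Sult2a8 -3.76 and -1.97. Mmd2 gave 0.02 and 1.11, Car3 -0.07 and -1.31 and Cish 0.38 and -0.51. Of the list members that passed in controls, 26 of 30 male-biased and 14 of 20 female-biased ones passed in the same direction against Rapa-1 males, where over all tested genes it was 75.0% of those lower and 62.2% of those higher. Against Rapa-2 males it was 24 of 30 and 18 of 20, and over all tested genes 39.9% and 32.4%.

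Other large control differences were smaller against Rapa-2 males but not against Rapa-1 males. Chp1, a calcium-binding partner of calcineurin and of sodium-proton exchangers, was at 11.54, 11.95 and 12.46 in control males and at 8.33, 9.13 and 9.76 in control females, a difference of -2.83 ± 0.10 (adjusted p = 8.37e-23). Its other probes differed by -0.38 and -0.35. Between Rapa females and Rapa-1 males the difference was -3.54, and against Rapa-2 males it was -0.47. Aldh6a1, a dehydrogenase of valine breakdown, was lower in control females at a log2 difference of -2.65 ± 0.11, Aldh1a1, a retinaldehyde dehydrogenase, at -2.62 ± 0.20 and Hadhb, a subunit of the mitochondrial trifunctional protein, at -2.53 ± 0.13. These 3 differed by -3.20, -2.90 and -2.93 against Rapa-1 males and by -0.05, -0.49 and -0.04 against Rapa-2 males. In each of the 4 genes the control sexes did not overlap.

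A second probe was available for 39 of the 220 genes over 2-fold lower in females on their brightest probe, and 26 of these second probes passed in the same direction. On the second probe 10 genes were over 2-fold lower and 18 differed by less than 0.5, with a median of -0.53 against -1.32 on the brightest. Among the 31 genes over 2-fold higher, 11 had a second probe, 9 of which passed in the same direction, with a median of 0.81 against 1.24. For 24 genes that were lower in controls but within 0.5 of Rapa-2 males the median of the second probe was -0.38, and for 8 genes over 2-fold lower against both it was -0.93.

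**Figure D5:**
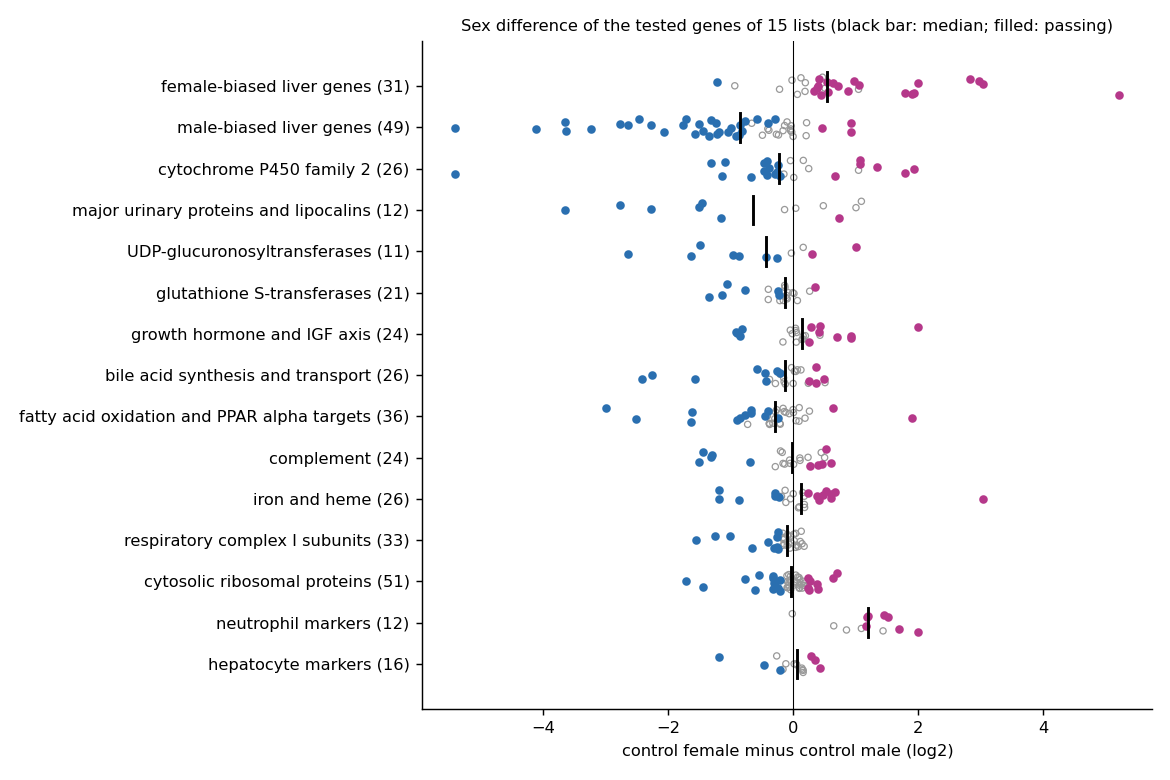
Log2 difference between control females and control males (horizontal axis) for the tested genes of 15 lists, with the number tested in parentheses. Filled points passed (pink higher, blue lower in females), open points did not, and the black bar is the list's median, which lies at 0.54 for the female-biased and at -0.85 for the male-biased list.

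Beyond the genes named by a fixed rule of size, list members named below for a known role were chosen after their values were seen. The list counts below are descriptions and stand beside 21.8% higher and 14.3% lower over all tested genes. In the growth hormone and IGF axis 8 of 24 tested genes were higher in females, 4 were lower and 12 did not pass, with a median of 0.14. Cux2, Cish and Igfals were higher, as given above, and the signal inhibitor Socs2 was higher by 0.70. Bcl6, the male-biased repressor, was lower at a log2 difference of -0.82, Fgf21 at -0.90 and Igfbp7, an IGF-binding protein, at -0.93 ± 0.09. The values of the receptor Ghr (0.15; other probe -0.67), Igf1 (-0.05) and Stat5a (0.14) did not pass. Of the 4 lower genes, 3 passed in the same direction against Rapa-1 males and 0 against Rapa-2 males. Of the 8 higher ones, 3 and 5 did. Over all tested genes it was 75.0% and 39.9% of those lower, and 62.2% and 32.4% of those higher.

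Among sex steroid receptors and steroid-metabolizing enzymes, 4 of 20 tested genes were higher in females and 8 lower, with a median of -0.13. Serpina6, the corticosteroid-binding globulin of plasma, was at 7.97, 12.44 and 14.49 in females and at 8.26, 10.56 and 11.06 in males, higher by 1.66 ± 0.40 (adjusted p = 0.00076). Serpina6 gave 0.52 with the brightest 0.1% signal as a covariate and 2.74 with the raw median. It gave 0.70 without F682 to F695 and 2.42 without F651 to F659. Hsd3b5, a male-biased ketosteroid reductase, was lower at a log2 difference of -1.24, the oestrogen receptor Esr1 at -0.71 and the X-linked Pgrmc1, a heme-binding membrane protein, at -1.96 ± 0.12. Against Rapa-2 males Serpina6 differed by 1.19, Hsd3b5 by -2.78, Esr1 by -0.01 and Pgrmc1 by -0.05. Against Rapa-1 males Serpina6 differed by 1.21 and Pgrmc1 by -2.60.

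Cytochrome P450 genes of family 2 divided, with 6 of 26 tested genes higher in females and 14 lower (median -0.23). The higher ones were led by the Cyp2b cluster: beside Cyp2b10 and Cyp2b13, Cyp2b23 was higher by 1.35 ± 0.43, and Cyp2b9 at 1.04 did not pass. Cyp2a5 and Cyp2g1 were each higher by 1.07. Below Cyp2d9 the lower ones included Cyp2c50 (-1.32), Cyp2d13 (-1.15), Cyp2c67 (-1.10) and the ethanol oxidase Cyp2e1 (-0.68). Of 15 genes of families 1, 3 and 4, 2 were higher and 4 lower: Cyp3a11, the main drug-metabolizing P450 of mouse liver, differed by -1.28 ± 0.13 (adjusted p = 2.22e-10) and Cyp3a13 by 0.43 ± 0.17, with other probes at 0.35 and near 0. Members of these families are similar in sequence, so probes of close copies may share signal.

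Glucuronosyltransferases and glutathione S-transferases that passed were mostly lower in females. Of 11 UDP-glucuronosyltransferases 7 were lower and 2 higher (median -0.44): Ugt2b34 differed by -1.63 ± 0.09, Ugt2b35 by -1.49 ± 0.10 and Ugt1a2 by 1.01 ± 0.19. Of the 7, 5 passed in the same direction against Rapa-1 males and 5 against Rapa-2 males. Over all tested genes lower in controls it was 75.0% and 39.9%. Against Rapa-1 and Rapa-2 males Ugt2b34 differed by -1.93 and -0.002, Ugt2b35 by -2.09 and -0.68, and Ugt1a2 by 1.20 and 1.03. Of 21 glutathione S-transferases 6 were lower and 1 higher (median -0.14), led by the male-biased Gstp1 at -1.34 ± 0.15 (other probe -1.03), Gsta1 at -1.14 ± 0.30, Gsta2 at -1.06 ± 0.27 and Gstp2 at -0.78 ± 0.19. Of 7 sulfotransferases and sulfate-donor synthases Sult1a1 (0.56 ± 0.08) and Papss2 (0.45 ± 0.11) were higher and Sult2a8 was lower. Of 4 flavin monooxygenases Fmo5 was lower at -0.90 ± 0.13, with -1.01 on its other probe, and Fmo4 (0.54 ± 0.06) and Fmo1 (0.40 ± 0.12) were higher. The 3 Fmo genes passed in the same direction against both kinds of Rapa male.

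Of 12 major urinary proteins and lipocalins 6 were lower in females and 1 was higher (median -0.65). Mup6 differed by -1.51 ± 0.32, with females from 9.21 to 13.62 and males from 12.75 to 14.26. Mup genes are nearly identical to each other, so the values of single members are uncertain. Of 19 serpins 3 were lower and 3 higher (median 0.02), and under median scaling in place of quantile normalization 6 were lower. The X-linked Serpina7, the thyroxine-binding globulin, differed by -1.14 ± 0.27.

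Beside 21.8% higher and 14.3% lower over all tested genes, 5 of 24 complement members were higher and 5 lower (median -0.02). The lower ones were parts of the terminal pore, C8a at -1.51 ± 0.30, C8b at -1.45 ± 0.36 and C6 at -1.32 ± 0.26 (other probe -1.37), together with Cfb, the alternative pathway protease, at -1.31 ± 0.09, and Cfhr2 at -0.70. C6, C8a and C8b were also lower in Rapa females against Rapa-2 males, at -2.07, -1.28 and -2.19, whereas Cfb differed by 0.35. The higher ones were Hc, which encodes C5, at 0.61, the lectin pathway protease Masp1 at 0.52, C4b, Vtn at 0.39 and Cfi at 0.27.

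In bile acid synthesis and transport 4 of 26 tested genes were higher in females and 8 lower (median -0.14). The uptake carrier Slco1b2 was at 11.10, 11.71 and 12.15 in males and at 8.19, 9.47 and 9.83 in females, a difference of -2.42 ± 0.12 (adjusted p = 4.02e-19). Baat, which conjugates bile acids with taurine, differed by -2.27 ± 0.11, Cyp7b1, the oxysterol hydroxylase of the alternative pathway, by -1.58 ± 0.17 and Cyp8b1, which makes cholic acid, by -0.58 ± 0.22. The values of Cyp7a1, the rate-limiting enzyme, gave a difference of 0.51 and did not pass. Against Rapa-2 males Cyp7b1 differed by -1.98, Slco1b2 by -1.33 and Baat by -0.19. Against Rapa-1 males they differed by -1.71, -3.19 and -2.83.

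Fatty acid oxidation and PPAR alpha target genes had 12 of 36 members lower in females and 2 higher (median -0.29). Beside Cidea and Hadhb, Eci2, an enoyl-CoA isomerase, differed by -1.64 ± 0.12 and the lipid droplet gene Cidec by -1.61. Of the 12 lower genes, 6 passed in the same direction against Rapa-1 males and 3 against Rapa-2 males, beside 75.0% and 39.9% of all tested genes lower in controls. Of 27 genes of fatty acid and triglyceride synthesis 6 were lower and 3 higher (median 0.09): the malic enzyme Me1 differed by -1.79 ± 0.22 (other probe -1.36), the elongase Elovl2 by -1.72 ± 0.11 and the desaturase Scd1 by -0.53 ± 0.19. The elongase Elovl3, known as male-biased, was detected on no female array and was at least 1.87-fold lower in females. Against Rapa-2 males Eci2 differed by -0.23, Me1 by -0.32, Elovl2 by -0.13 and Scd1 by -0.69, and the measured value of Elovl3 was -1.99. Against Rapa-1 males these values were -2.27, -2.25, -2.01, -1.34 and -1.15. Of 19 cholesterol synthesis genes Sqle (0.63 ± 0.27) and Sc5d (0.56 ± 0.22) were higher and Ebp, on the X chromosome, was lower at -0.83 ± 0.09; Sqle and Sc5d did not pass under median scaling.

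Iron and heme genes had 9 of 26 members higher and 6 lower in females (median 0.12), and 8 and 9 under median scaling. The hepcidin paralogs went opposite ways: Hamp2 was higher, as given above, while Hamp, the hormone gene itself, was at 8.82, 12.80 and 13.75 in females and at 13.08, 13.50 and 14.15 in males, a difference of -1.19 ± 0.34 (adjusted p = 0.0036). Transferrin receptors Tfrc and Tfr2 were higher by 0.67 and 0.52. Alas2, the erythroid form of the first heme synthesis enzyme, differed by -1.20 ± 0.23 and the iron regulatory protein gene Aco1 by -0.86 ± 0.07.

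Subunits of respiratory complex I were lower in females in 10 of 33 tested genes, with none higher and a median of -0.10. Ndufb9 lay between 7.02 and 7.79 in females and between 8.21 and 9.57 in males, a difference of -1.55 ± 0.10 (adjusted p = 1.52e-15), and Ndufb2 and Ndufb5 differed by -1.25 ± 0.07 and -1.02 ± 0.09. Against Rapa-1 males 8 of the 10 passed in the same direction, a share near the 75.0% of all genes lower in controls, and against Rapa-2 males 0, beside 39.9% of all, and Ndufb9 differed there by -0.01. Of 51 cytosolic ribosomal protein genes 13 were lower and 8 higher (median -0.04), with Rpl35a at -1.72 ± 0.06, Rps3a1 at -1.45 ± 0.07, Rpl5 at -0.78 ± 0.08 and Rps25 at 0.70 ± 0.07.

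Markers of hepatocytes and of the other liver cells were read from lists of 4 to 19 tested genes. Over all tested genes 21.8% were higher and 14.3% lower. Of 16 hepatocyte markers 3 were higher and 3 lower, and the mean over them was 12.8 ± 0.10 in females and 12.8 ± 0.14 in males; under median scaling 1 was higher and 5 were lower. The Alb probe, for albumin, read near background at means of 6.94 and 6.78, and its difference of 0.16 was under the 15% minimum, while Apoh differed by -1.18 ± 0.08 and Ttr by -0.47 ± 0.06. Of 19 endothelial markers 7 were higher and 2 lower, among them Vwf (0.60 ± 0.17), the scavenger receptor Stab2 (0.56 ± 0.10), Gpr182 (0.36 ± 0.08; other probe 0.14) and Lyve1 (-0.78 ± 0.16). Of 16 stellate cell and fibroblast markers Rgs5 (0.49 ± 0.08) and Ecm1 (0.34 ± 0.07; other probe 0.10) were higher.

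Among immune markers, 2 of 17 Kupffer cell and macrophage genes were higher and 2 lower: Cd14 (0.93 ± 0.31), Clec4f (0.60 ± 0.26; other probe 0.03), Adgre1 (-1.70 ± 0.20; other probes -0.53 and -0.06) and Gpnmb (-0.62 ± 0.20). Of the 17, 1 was higher and 2 lower under median scaling, and 4 and 2 with background correction. Without F651 to F659, or without M716 to M730, 0 were higher and 1 lower. Of 7 class II genes only H2-Aa passed, at -2.04 ± 0.25, while H2-Ab1 (-0.27) and H2-Eb1 (-0.25), which are induced with it, did not. B cell and plasma cell markers had 3 of 8 members higher, but 1 under median scaling and 0 without the females F682 to F695 (median -0.01), with Mzb1 at 0.47 ± 0.19, Pou2af1 at 0.29 ± 0.12 and Tnfrsf17 at 0.26 ± 0.06. Of 12 T and NK cell markers Zap70 was higher (0.40 ± 0.11; other probe 0.44) and Ccl5 lower (-0.64 ± 0.24), and Cd8a, Cd5, Gzma, Gzmb and Ncr1 were detected on no control array. Of 9 red cell and platelet markers 3 were higher and 2 lower, with Slc4a1 2.46-fold higher (SE 0.39 on the log2 scale), Klf1 at 0.47 ± 0.10 and Pf4 at -1.10 ± 0.31, and of 4 cholangiocyte markers Sox9 was lower (-0.22 ± 0.05).

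The neutrophil list stood out by its spread among mice. Of 12 tested members 7 were higher in females and none lower, with a median of 1.19, but 5 of the 12 were detected on most female arrays and not on most male arrays, so their place among the tested genes rests on the females. S100a8, a subunit of calprotectin, was at 8.17, 11.25 and 14.77 in females and at 7.35, 8.85 and 13.60 in males, higher by 1.99 ± 0.64 (adjusted p = 0.00909), but 11 of 16 females were above the male mean. Its partner S100a9 was higher by 1.51 ± 0.61, lactoferrin (Ltf) by 1.69 ± 0.59 and the granule peptide gene Camp by 1.45 ± 0.51. The mean over the list was 9.00 ± 1.73 (SD) in control females, from 7.18 to 11.95, and 7.82 ± 0.94 in control males, from 6.98 to 10.44. None of the 7 passed against Rapa-1 or Rapa-2 males, beside 62.2% and 32.4% of all tested genes higher in controls. In the control comparison 0 of the 12 members passed without the males numbered M716 to M730, 1 without M366 to M374, 2 without the females F651 to F659 and 8 without F682 to F695, while the list's median was 1.32, 1.14, 1.00 and 1.54.

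Whether the sex difference depended on diet was tested over all arrays as an interaction, which 20.4% of transcripts passed at an adjusted p under 0.05 with the Rapa males as 1 group. Of 119 named genes, 11 both passed between control sexes and had such an interaction. The 20.4% counts the interaction alone, so it is not like for like with the 11. Among the 11 were Cyp2b13, Cyp2b23 and Serpina1e, whose sex differences were larger in Rapa-fed mice.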

How the data were processed

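Liver RNA of 69 mice was measured on Illumina bead arrays of 25697 probes. The authors exported mean bead intensity per probe with the vendor software, without normalization, and the deposited detection score, read here as 1 minus the detection p, was used as a filter. The authors also deposited quantile-normalized log2 values of the same arrays, which correlated with those computed here at r of at least 0.99992 and served as an alternative. Intensities were taken as log2 and quantile-normalized over all arrays, and probes with a detection p below 0.05 in 13 or more of the arrays were tested. Control females and males were compared with limma 3.58.1 in R 4.3.3, with Benjamini-Hochberg adjustment over 12442 probes. The p-values measure the spread between mice, with 1 array each, and the number of arrays limits the precision. No array gives a count, so depth is not defined.

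Transcripts that changed by more than 15% with an adjusted p below 0.05 passed. Gene lists used the probe with the highest mean signal per gene. Symbols came from the platform annotation for 23978 probes and 1719 had none. Genes were named by rule: the 12 highest and 12 lowest autosomal differences, up to 12 passing members of each sex-biased list with those of opposite sign, up to 4 of every other list, and the sex chromosome genes. Some further list members were named after their values were seen. The lists and the comparison were chosen with earlier results of these data known. A gene detected on no array of a group was given as at least a fold over the lowest signal detected there. The fit was tested on simulated data. Alternatives changed the background correction, normalization, filter, test, covariates, arrays and blocks.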

Additional observations from a re-analysis of the deposited data

Results flagged for a closer look

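Of 119 named genes, 11 passed between control sexes and had a sex difference that differed between the diets by limma's interaction test (adjusted p under 0.05). Over all transcripts 20.4% passed that interaction test, a share that does not also ask for passing between control sexes. The difference between the diets is given as the log2 sex difference in controls minus that in all Rapa-fed mice. For Cyp2b13 it was -2.37 (adjusted p = 0.0287), with females higher by 1.79 in controls and by 4.16 in Rapa-fed mice, and for its neighbour Cyp2b23 it was -1.63 (adjusted p = 0.0337), with 1.35 and 2.97. For Serpina1e it was 2.43 (adjusted p = 0.0264), with -2.07 and -4.50, and for Serpina1a 0.61 (adjusted p = 0.00294), with 0.35 and -0.26. Serpina1 genes are near-identical copies and their probes may share signal. Cish gave 0.95 (adjusted p = 0.0193), with 0.92 and -0.03.

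Smaller differences between the diets were 0.57 for Cyp3a13 (adjusted p = 0.0487), 0.47 for Rps25 (adjusted p = 0.000908), 0.41 for St3gal6 (adjusted p = 0.0298), 0.33 for Klf1 (adjusted p = 0.0383) and 0.29 for Sult1a1 (adjusted p = 0.0411). For Eif2s3y it was -0.76 (adjusted p = 0.00757): the sex difference was -2.41 in controls, -2.51 against Rapa-1 males and -0.65 against Rapa-2 males.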

How the results depend on the processing

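The count of 4433 passing transcripts was 6856 with no fold minimum (4108 higher, 2748 lower), 1012 with a minimum of 1.5-fold (253 and 759), and between 3470 (without M716-M730) and 6308 (background correction by neqc) under the other alternatives. The 37 and 337 transcripts over 2-fold became 809 with neqc (102 and 707) and 426 with the brightest 0.1% signal as a covariate (93 and 333, or 21.8% higher). Against Rapa-2 males only, 2991 transcripts passed in Rapa females in place of 5000, and the interaction gave 4528 in place of 2543 with Rapa-1 males only. Under median scaling the Rapa comparison gave 4489, split 226 higher and 4263 lower against 2780 and 2220, while the control comparison gave 4245 (2152 and 2093). Of 2256 values of 119 named genes under 19 settings, 2063 kept their direction and side of the threshold, 187 lost the call, 3 gained it and 3 reversed. Of the 119 genes, 69 kept both under all settings. Cyp3a13 reversed, at -0.029, once each array's raw median was a covariate. Mzb1 reversed at -0.16 with the brightest 0.1% signal as a covariate and at -0.057 without F682-F695. The settings that lost the most calls were the raw median (35) and the brightest 0.1% signal (31) as covariates and the fit without M716-M730 (26). The cause was not tested. With the title number as a replicate block 4500 passed and 381 were over 2-fold. Over 16 pairs of equal title number the deviations correlated between -0.53 and 0.46, with 10 over 0.1. Whether the numbers paired the mice was not tested. Signal near background limits dim genes.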

Other observations

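S100a8 varied widely among mice of 1 sex, and its relation to other named genes was read after this spread was seen, over 35 genes in each sex (70 relations, Benjamini-Hochberg adjusted, two-sided permutation tests with 100000 resamples). Both Pearson's r and Spearman's rho passed for 12 genes in control males and 9 in control females. Ugt2b1, Hadhb, Car3 and C4b passed by both measures in both sexes. For Ugt2b1, Hadhb and Car3 r was -0.742, -0.767 and -0.845 in males and -0.804, -0.654 and -0.774 in females. In males (n = 19) Aldh1a1 gave r = -0.918 (permutation p = 1e-05, the smallest these resamples can give where the size of r is compared; adjusted p = 0.00035) and rho = -0.832 (p = 3e-05; adjusted p = 0.0014), and r was -0.807 without the 2 mice farthest from the median of S100a8. Within the animal-number runs r was -0.832 and -0.952. In females Aldh1a1 gave r = -0.443 (permutation p = 0.0859; adjusted p = 0.15). Cyp2d9 gave r = -0.7 (permutation p = 0.00142; adjusted p = 0.00585) and rho = -0.622 (p = 0.0054; adjusted p = 0.021) in males, -0.575 without the 2 farthest mice, and -0.698 and -0.755 within runs. In females Cyp2d9 gave r = -0.0797 (permutation p = 0.766; adjusted p = 0.812).

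In females (n = 16) Acot3 gave r = -0.892 (permutation p = 4e-05; adjusted p = 0.00084) and rho = -0.809 (p = 0.00024; adjusted p = 0.0024), -0.878 without the 2 farthest mice, and -0.961 and -0.856 within runs. In males Acot3 gave r = -0.528 (permutation p = 0.0237; adjusted p = 0.0519). Differences between the sexes in these relations were not tested. The complement gene C4b ran the other way in both sexes, with r = 0.82 in males (permutation p = 1e-05; adjusted p = 0.00035) and 0.705 in females (permutation p = 0.00274; adjusted p = 0.00913), rho of 0.778 (p = 0.00016) and 0.776 (p = 0.00066), and r of 0.775 and 0.616 without the 2 farthest mice. Within runs C4b gave 0.96 and 0.792 in males and 0.782 and 0.781 in females. Nnmt was also positive and passed by both measures in males (r = 0.674), as did Serpina1e in females (r = 0.863). These are relations across mice and no cause was tested.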
